A study of Mus musculus with 10 samples.

Results

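The 5 melanomas labelled MPNST-like, out of 10 mouse melanomas in the series, were examined for how far they differ from each other and for what is left in them of the melanocyte pigment program. MPNST stands for malignant peripheral nerve sheath tumor, a sarcoma of Schwann cell lineage, and the label marks melanomas of that appearance and calls them amelanotic, without visible pigment. Of 19057 named genes on the array, 11089 were kept because the scanner gave a detection p-value under 0.05 on 3 or more of these 5 arrays. Each gene was then described by its spread over the 5 tumors and by its correlation with a pigment level, the mean log2 intensity of Pmel, Tyrp1, Dct and Mlana.

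All 5 tumors came from C57BL6 mice of genotype BrafV600E-CDK4R24C, so the group shares both mutant alleles. Tamoxifen had been put on the skin for 4 days to switch on the BRAF allele, and the carcinogen DMBA was given once on the skin afterwards. The tissue is labelled melanoma, the material is tumor frozen in liquid nitrogen and excised with skin, and 100 ng of total RNA was labelled for a single-colour Illumina bead array. The labels used here give no age or sex, and nothing in them says whether each tumor came from its own animal, so p-values measure only the spread between these samples. Tumor numbers are names without an order.

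Melanocytes make melanin inside melanosomes, organelles related to lysosomes. Tyrosinase (Tyr) carries out the rate-limiting step of melanin synthesis, Tyrp1 and Dct act on later intermediates, Pmel builds the amyloid fibrils that scaffold melanin in the melanosome, and Mlana encodes a melanosomal membrane protein that takes part in Pmel maturation. The transcription factor Mitf, with Sox10, drives these genes in melanocytes, while Sox10 is also a lineage factor of Schwann cells, the other neural crest derivative relevant here.

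Promoters of 3 melanin enzyme genes are shown, Dct and Tyrp1 because they had the largest SDs of the pigment list and Tyr because its RNA was detected in a single tumor. Each run holds the 250 bases before the annotated start of the gene in RefSeq, assembly GRCm38.p6, read 5′ to 3′ on the gene's strand. The windows are chr14:118052247-118052496 on the minus strand for Dct, chr4:80833963-80834212 on the plus strand for Tyrp1 and chr7:87493513-87493762 on the minus strand for Tyr. Capitals mark matches to CATGTG or CACGTG, E-box hexamers of the kind that Mitf binds, on either strand (CATGTG reads CACATG on the other strand, and the hexamers searched do not overlap in these windows).
Dct: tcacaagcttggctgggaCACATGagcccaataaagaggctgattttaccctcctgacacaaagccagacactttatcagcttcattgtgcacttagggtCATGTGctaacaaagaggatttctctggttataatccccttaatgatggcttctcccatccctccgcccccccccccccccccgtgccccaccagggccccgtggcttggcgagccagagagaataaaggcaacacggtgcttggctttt
Tyrp1: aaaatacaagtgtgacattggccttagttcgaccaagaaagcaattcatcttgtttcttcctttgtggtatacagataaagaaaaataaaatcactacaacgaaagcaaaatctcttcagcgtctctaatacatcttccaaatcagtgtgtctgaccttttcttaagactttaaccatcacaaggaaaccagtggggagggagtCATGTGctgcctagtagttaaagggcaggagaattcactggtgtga
Tyr: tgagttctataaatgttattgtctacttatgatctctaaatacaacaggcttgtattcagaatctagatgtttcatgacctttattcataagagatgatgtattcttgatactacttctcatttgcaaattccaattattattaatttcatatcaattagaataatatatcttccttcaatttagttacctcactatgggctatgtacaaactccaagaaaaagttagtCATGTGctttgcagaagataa
The Dct window holds CATGTG at 2 places, with first bases at -232 and -150 from the start. The Tyrp1 window holds it once at -46 and the Tyr window once at -21. Among other pigment genes with a window, Oca2 holds CATGTG once, Gpnmb holds neither hexamer, and of 2 annotated starts of Rab27a the first holds neither and the other holds CACGTG. Among 32851 mouse promoter windows of the same length, 12.3% hold CATGTG, 6.02% hold CACGTG and 17.6% hold either. These matches describe the sequence and say nothing about binding.

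The label's markers were examined first. Ngfr, a neurotrophin receptor that marks neural crest cells and immature Schwann cells, had log2 intensities of 10.68, 10.22, 10.62, 11.34 and 11.40 in tumors 1 to 5. Gap43, a growth-associated protein of regenerating nerve, had 11.09, 9.81, 8.80, 11.37 and 10.61. Tnc, a matrix glycoprotein of nerve sheath and wounds, had 12.83, 12.79, 10.63, 13.19 and 11.54. All 3 were detected in all 5 tumors, as were 9447 of the 11089 kept genes. The SD was 0.51 for Ngfr, 1.04 for Gap43 and 1.08 for Tnc, and tumor 3 was the lowest for Gap43 and Tnc. Sox10 was also detected in every tumor, at 12.04, 10.94, 12.22, 12.06 and 11.69. With no other group set beside these tumors, the values describe the markers and do not test the label.

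The arrays were alike in brightness and sat on 2 chips. Median intensity ran from 87.4 to 93.9, detected probes from 19274 to 21581, and correlations between arrays from 0.895 to 0.962. Tumors 3, 4 and 5 were on chip 2, and tumors 1 and 2 on chip 1. By limma's moderated test across 11089 genes, 0 genes differed between chip 2 and chip 1 after Benjamini-Hochberg adjustment (lowest adjusted p = 0.39), and 397 (3.58%) had an unadjusted p under 0.05. This test had 3 arrays against 2.

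RNA of the pigment program differed widely among the MPNST-like tumors. The pigment level was 4.48 in tumor 1, 5.70 in tumor 2, 9.39 in tumor 3, 7.94 in tumor 4 and 11.92 in tumor 5, a mean of 7.89 ± 2.96 (SD, n = 5) on the log2 scale. Tumor 5 lay 7.45 log2 units above tumor 1 in the main processing. This gap depends on the processing, and 3 of the 4 genes were not detected in tumor 1. It was 5.53 without background correction and 6.98 in the authors' values. The order of the tumors was the same for each of the 4 genes (1, 2, 4, 3, 5 upward). That order was also the same under the 7 other background corrections, scalings, probe choices and sources of values that were run. In bulk tumor RNA, fewer pigment cells and less pigment RNA per cell cannot be told apart.

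Dct, dopachrome tautomerase, had log2 intensities of 5.11, 7.77, 11.71, 9.68 and 14.03 in tumors 1 to 5. It was detected on all 5 arrays, and tumor 5 was 483-fold above tumor 1. Its second probe gave 4.56, 6.52, 10.75, 8.66 and 13.71, and the values of the 2 probes correlated at 0.995 over the 5 tumors. Tyrp1, which acts after tyrosinase in eumelanin synthesis, had 4.16, 5.07, 8.97, 7.82 and 12.58, and was not detected in tumor 1. Pmel had 4.48, 4.57, 7.84, 6.51 and 11.71 and Mlana had 4.16, 5.41, 9.02, 7.76 and 9.37, both likewise undetected in tumor 1, so no fold against that tumor is given for these 3 genes. Tumor 5 exceeded tumor 3 by 0.35 log2 units for Mlana, whereas that gap was 3.87 for Pmel and 3.60 for Tyrp1. Correlations between pairs of the 4 genes, over the same 5 arrays, ran from 0.867 for Pmel with Mlana to 0.986 for Pmel with Tyrp1.

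**Figure D1:**
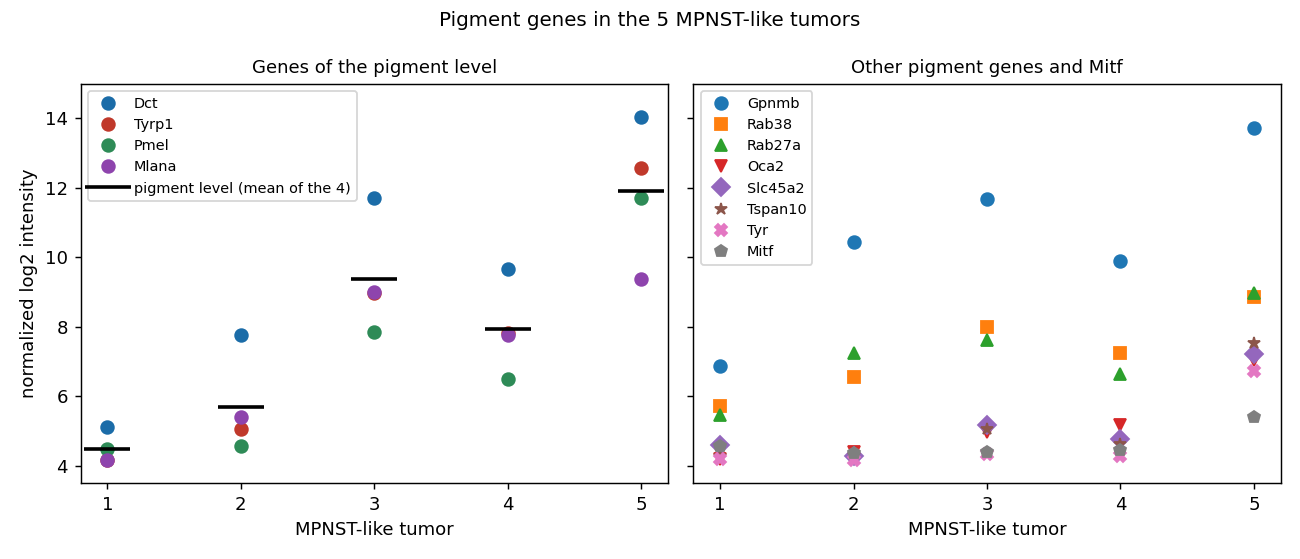
Normalized log2 intensity (vertical axis) of pigment genes in each of the 5 MPNST-like tumors (horizontal axis), 1 point per array, with the genes of the pigment level and their mean (bar) on the left and other pigment genes with Mitf on the right. Heights are comparable between tumors for 1 gene, not between genes. Dct spans 5.11 to 14.03, while Tyr and Mitf stand above the rest in tumor 5 alone.

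Other genes of the pigment list were less uniform. Of 27 list members on the array 17 were kept, the 4 genes of the pigment level among them. An SD of at least 1 log2 unit was found for 9, a spread that 692 of all 11089 kept genes reached (6.24%). These 9 are the 4 genes of the level with Gpnmb, Rab27a, Rab38, Slc45a2 and Oca2. The count thus rests in part on the genes chosen to define the level. Of the 13 kept members outside the level, 12 had a correlation with it above 0, beside 48% of all 11085 other kept genes. A correlation of at least 0.9 was found for 4 (Rab38, Mlph, Oca2 and Gpnmb), beside 1.77% of those genes. Oca2 was detected on 3 arrays and Mlph on 4, so their r rests in part on values at background. The median correlation of the 13 members was 0.52, against a median of -0.04 over all other kept genes. It was 0.80 without tumor 1, 0.90 without tumor 2 and 0.40 without tumor 5. These correlations rest on 5 tumors that share the arrays with the level itself, and they are given as a measure of likeness without a p.

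Rab38, a small GTPase that brings melanin enzymes to melanosomes, followed the level most closely of the list, with 5.72, 6.56, 8.01, 7.25 and 8.87 in tumors 1 to 5 (r = 0.994). Its second probe had r = 0.982. Gpnmb, a melanosomal glycoprotein that macrophages also express, had 6.87, 10.44, 11.67, 9.89 and 13.72 (r = 0.916), a 116-fold range. In this gene tumor 2 lay above tumor 4, unlike in the 4 genes of the level. Rab27a, which tethers mature melanosomes for transport, ran from 5.48 in tumor 1 to 8.97 in tumor 5 (r = 0.889), and its partner Mlph from 4.46 to 5.36 (r = 0.95). Myo5a, the motor of that complex, had 8.55, 7.95, 8.15, 8.19 and 8.79, an SD of 0.34, with r = 0.41 that changed sign to -0.43 without tumor 5, and its 2 brightest probes did not vary together (r = -0.18). The pH-regulating genes Oca2 and Slc45a2 were highest in tumor 5, with 7.04 and 7.23 there. In any other tumor they had no more than 5.19 for Oca2 and 5.18 for Slc45a2. Further probes of Slc45a2 had 7.28 to 7.74 in tumor 5, and tumor 3 was the second highest on them at 4.91 to 5.38.

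Tyrosinase itself was detected in tumor 5 only. Tyr had 4.20, 4.17, 4.35, 4.28 and 6.74 in tumors 1 to 5, and tumor 3 carried Dct at 11.71 with Tyr not above background. A single probe read Tyr, and it was dim even in tumor 5. Whether Tyr fell along with Dct in tumor 3 therefore cannot be told. Tspan10 had 4.29, 4.31, 5.05, 4.62 and 7.53 (detected on 2 arrays), Trpm1 5.44 in tumor 5 (2 arrays), and the melanocortin receptor Mc1r and the melanosomal receptor Gpr143 had 6.14 and 5.52 in tumor 5 and were detected on that array only. Capn3 and Slc24a4 were each detected on 1 array and were not highest in tumor 5, with highest values of 4.61 in tumor 3 and 4.80 in tumor 1. Slc24a5, Abcb5 and Met were detected on no array. These genes failed the filter of 3 arrays and enter no count of kept genes.

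The regulators of the program were mixed, with some at background, some with a narrow spread and 2 with a wide one. Mitf had 4.58, 4.38, 4.39, 4.45 and 5.42, and only tumor 5 was above background, while a second Mitf probe was detected on no array. Pax3, another melanocyte lineage factor, was detected on 1 array, with a range of 0.43 log2 units. Sox10 had an SD of 0.51 and r = 0.21 with the pigment level, which turned to -0.08 under median scaling and to -0.51 without tumor 2. Of 27 listed regulators 20 were kept, 2 with an SD of at least 1 and 15 with r above 0, beside 6.24% and 48% of all genes. The 2 with the wide spread were Tfap2b and Msx1. Tfap2b, an AP-2 factor of neural crest and skin, had 5.19, 6.31, 8.72, 5.91 and 9.46 (r = 0.914). Irf4, which acts with Mitf on Tyr, had 4.32, 4.93, 5.44, 4.97 and 5.70 (r = 0.949), all close to background. The receptors Kit (SD 0.48, r = 0.77) and Ednrb (SD 0.88, r = 0.52) were detected in all 5 tumors. Among factors of the mesenchymal state, Twist1 had r = 0.83 with an SD of 0.74, whereas Zeb1 and Zeb2 had SDs of 0.29 and 0.37 and second probes that correlated with the first at only -0.43 and 0.07.

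For the machinery that builds melanosomes and other lysosome-related organelles, such as the Hps genes, 23 of 24 listed genes were kept. Of these 0 had an SD of at least 1 (6.24% of all kept genes did), the highest SD was 0.85, and the median SD was 0.26, beside 0.31 for all kept genes. Their median r with the pigment level was 0.04, which was 0.34 without tumor 1 and -0.18 without tumor 5. Of the 23, 13 had r above 0, near the share of 48% of all genes.

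Set against all genes, Dct, Tyrp1 and Pmel were among those that differed most between the 5 tumors. This did not hold for the whole pigment list, in which 9 of 17 kept genes reached an SD of 1 and Sgcd had only 0.27. Over all kept genes the SD had a median of 0.31 log2 units, quartiles of 0.21 and 0.49 and a 95th percentile of 1.10. An SD of at least 2 was found for 94 genes. Dct ranked 9th by SD, Tyrp1 11th and Pmel 19th of 11089, with SDs of 3.45, 3.35 and 2.98. Of the genes that sat around them, many were of skeletal muscle (Atp2a1, Acta1, Myl1, Tnnc2, Pvalb, Tnni2, Mylpf, Mb, Myh1 and the muscle actinin Actn2). The others encode secreted proteins (Mup2, Mup6, Csn3, Scg2, Gdf10 and Reg1) and a hair keratin (Krt27). Probes of the major urinary protein genes Mup2 and Mup6 may read near-identical family members. At the other end Tmsb4x, which encodes an actin-binding peptide, had an SD of 0.02 after quantile normalization and 0.24 in the authors' values. Where a gene had several kept probes and a range of at least 1, its 2 brightest probes correlated at a median of 0.92 over 1266 genes.

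**Figure D2:**
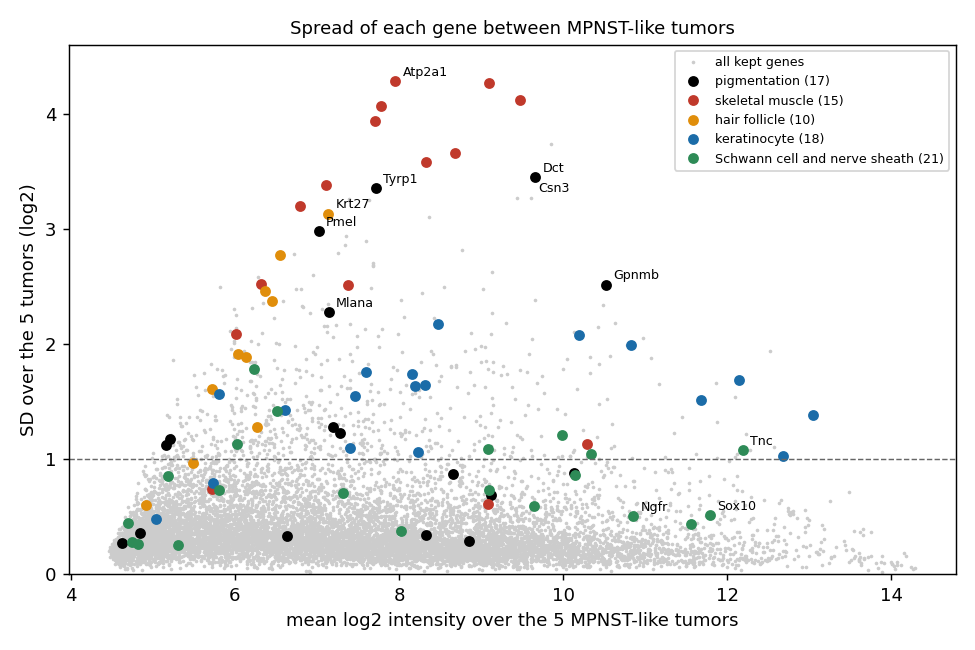
Spread of each of 11089 kept genes over the 5 MPNST-like tumors (vertical axis, SD of log2 intensity) against its mean log2 intensity (horizontal axis), with 5 gene lists in colour and the number of kept members in the legend. The dashed line marks an SD of 1. Skeletal muscle genes reach 4.28 and Dct 3.45, while Ngfr and Sox10 lie at 0.51.

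Among genes of wide spread, tumor 1 was most often the lowest. Of the 692 genes with an SD of at least 1, 415 were lowest in tumor 1, against 52 to 102 lowest in each of the other 4 tumors. In 58 of the 692, tumor 1 lay below the next tumor by more than 0.71 of the whole range. Without tumor 1 the number of genes with an SD of at least 1 was 482. The first principal component held 48.9% of the variance. On it tumors 1 and 4 lay at -60.9 and -19.95, and tumors 2, 3 and 5 at 32.14, 11.3 and 37.4. Keratinocyte genes were the clearest case, since all 18 kept members of that list were lowest in tumor 1, as were 24.5% of all kept genes. The mean deviation of the list was -2.21 in tumor 1, against 0.20 to 0.87 in the other tumors. Krt17, a keratin of stressed and appendage epidermis, had 7.30 in tumor 1 against 11.44 to 11.97 elsewhere.

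Tumors 2 and 5 were high in RNA of skeletal muscle. Acta1, the skeletal muscle actin, had 7.24, 13.51, 6.88, 4.19 and 13.68 in tumors 1 to 5, and Atp2a1, the calcium pump of fast muscle, had 4.93, 12.04, 5.18, 4.44 and 13.19. All 15 kept muscle genes were higher in tumors 2 and 5 than in the other 3. That arrangement was seen in 1421 of all kept genes (12.8%) and in 25.4% of those with an SD of at least 1. Only 6 of the 15 were detected on all 5 arrays, so the others passed the filter through the tumors where they are high. For those genes the arrangement is in part set by the filter, and their r rests in part on values at background. Tumors 2 and 5 were the second lowest and the highest in pigment, and the muscle genes had a median r of 0.30 with the pigment level, which was 0.69 without tumor 2 and -0.43 without tumor 5. Adipocyte genes had their highest scores in the same pair. Adipoq had 10.41 in tumor 5 and 9.54 in tumor 2, but also 8.84 in tumor 3, against 5.06 in tumor 1 and 4.55 in tumor 4.

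Tumor 2 differed by genes of neutrophils and inflammation. S100a8, a calcium-binding protein abundant in neutrophils, had 7.70, 13.95, 10.31, 11.24 and 9.24, and Cxcl2, a neutrophil-attracting chemokine, had 4.26, 10.23, 5.25, 4.44 and 4.91. The chemokine and cytokine list was highest there for 14 of 21 kept genes, as were 15.6% of all kept genes. Median r with the pigment level was -0.25 over 6 neutrophil genes and 0.03 over 21 chemokines and cytokines, and both turned with single tumors. Without tumor 1 they were -0.95 and -0.45, and without tumor 2 they were 0.29 and 0.75. Hba-a1, an alpha globin of red blood cells, was also highest in tumor 2, at 14.05 against 10.70 to 11.95.

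**Figure D3:**
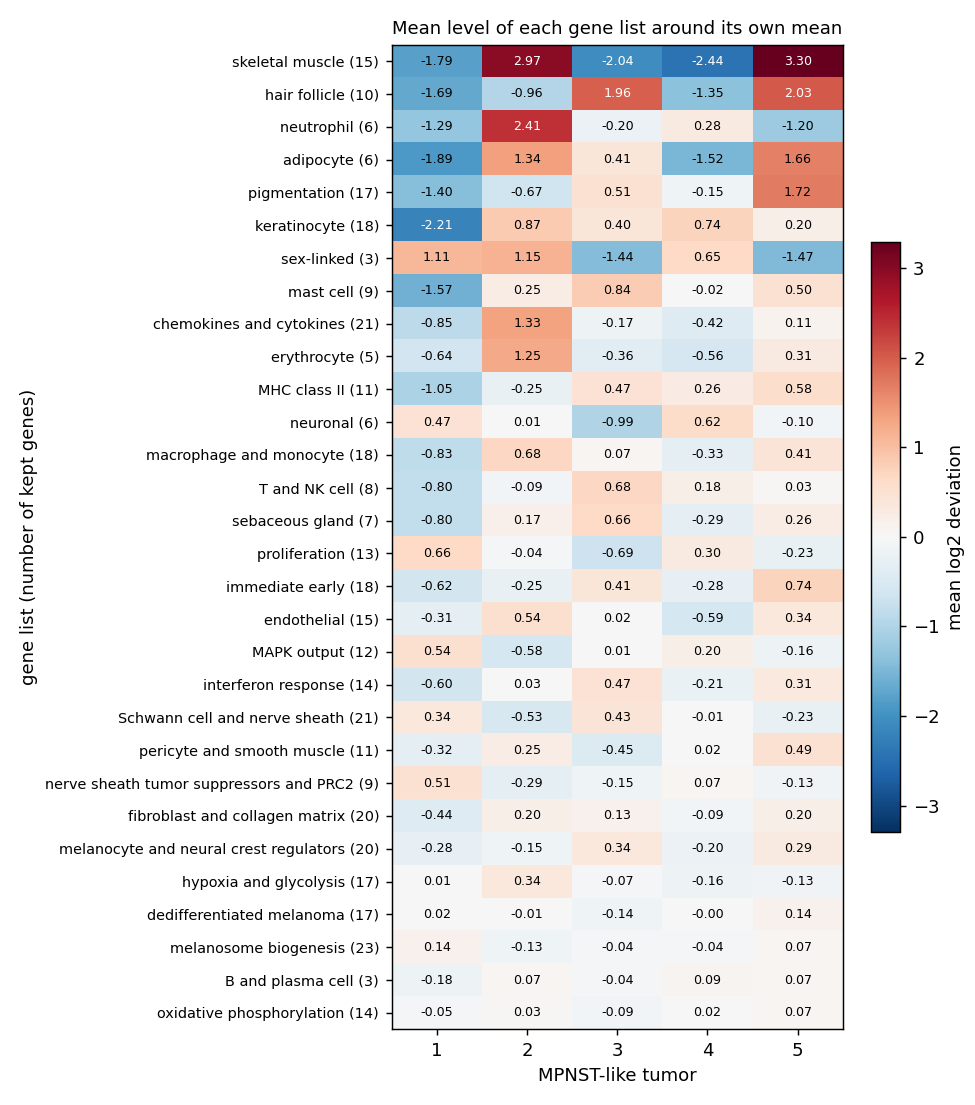
Mean log2 deviation from each gene's own mean over the 5 tumors, averaged over the kept genes of each list (rows, number of kept genes in brackets) in each MPNST-like tumor (columns). Red is above and blue below the mean of the list. Muscle genes are high in tumors 2 and 5 (2.97 and 3.3), hair follicle genes in tumors 3 and 5 (1.96 and 2.03), and keratinocyte genes low in tumor 1 (-2.21).

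No single gene could be tied to the pigment level by test. A limma fit of every kept gene outside the level on that level called 0 of 11085 genes in either direction at an adjusted p under 0.05 (0%), with a lowest adjusted p of 0.51, and 611 genes (5.51%) had an unadjusted p under 0.05. Without tumor 2 that unadjusted share was 16.4% and the lowest adjusted p 0.076. The 5 arrays limit the precision of such a fit.

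The genes most like the pigment level are therefore given as a description. Of the 11085 genes 196 (1.77%) had r of at least 0.9 and 234 (2.11%) had r of -0.9 or less, while 115 (1.04%) put the 5 tumors in the same order as the level and 145 (1.31%) in the opposite order. A range of at least 1 log2 unit was found in 3690 of all kept genes (33.3%), of which 3686 are outside the level. Among these 3686 genes, 93 (2.52%) had r of at least 0.9 and 59 (1.6%) had r of -0.9 or less. The 10 highest were Dnajc6, Atp6ap2, Ecel1, Rab38, Sybu, Igfbp2, Sp6, Papln, Ntrk3 and Mab21l4, with r from 0.978 to 0.995. Ecel1, Ntrk3 and Mab21l4 were detected on 3 arrays and Dnajc6 and Sybu on 4, so their r rests in part on values at background. Ntrk3, the receptor of neurotrophin 3 in neural crest derivatives, had 4.28, 4.36, 5.64, 5.55 and 7.0, and its second probe r = 0.949. Igfbp2, a secreted binding protein of insulin-like growth factors, had 5.76, 6.47, 7.62, 7.36 and 8.46, and its second probe r = 0.718. Atp6ap2, an accessory protein of the proton pump that acidifies organelles, had 10.59, 10.86, 11.25, 11.10 and 11.66. Second probes were less alike to the level for Atp6ap2 (r = 0.682) and unlike it for Sybu (r = 0.033).

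At the low end stood Ccne2, Hif1a, Psmd11, Tmem263, Siah2, Ercc1, Tmx1, Rrm2, Vcan and Steap2, with r from -0.991 to -0.962. Vcan, a large matrix proteoglycan, had 8.30, 7.72, 6.76, 7.66 and 6.19, and its second probe r = -0.867. Hif1a, the oxygen-regulated transcription factor subunit, had 6.65, 6.58, 5.88, 6.09 and 5.61. Rrm2, a ribonucleotide reductase subunit needed for DNA synthesis, had r = -0.974, and its second probe -0.699.

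Some gene lists leaned one way with the pigment level as a whole. All 11 kept MHC class II genes, which present antigen to helper T cells, had r above 0 (48% of all genes did), with a median of 0.87 and 4 of at least 0.9. H2-Ab1, a class II chain, had 9.87, 11.05, 11.96, 11.52 and 12.18 in tumors 1 to 5, and Cd74, the invariant chain, had 10.82, 11.77, 12.85, 12.32 and 12.85. With each tumor left out in turn the list's median r lay between 0.86 and 0.93. However, its score ranged over 0.83 log2 units without tumor 1, against 1.63 with it. On the arrays of chip 2 alone the score ranged over only 0.32 log2 units. Mast cell genes had a median r of 0.80, or 0.65 without tumor 1, with 9 of 9 above 0. All 9 were lowest in tumor 1 (24.5% of all kept genes were). Among them Mcpt4, a mast cell protease, had 6.98, 8.56, 10.05, 9.17 and 10.15. Hdc, which makes histamine, was highest in tumor 2 at 10.73, with r of only 0.01 and a second probe at -0.29.

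Immediate early genes, induced within minutes by growth factors or stress, had r above 0 for 16 of 18 kept genes. Of all genes, 48% had r above 0. The median r of the list was 0.74. Fos had 9.86, 8.79, 11.97, 9.75 and 12.29 and Egr1 had 10.96, 10.61, 12.59, 11.04 and 12.91, so tumors 3 and 5 lay above the other 3 for both. Proliferation genes had correlations of the opposite sign, with 1 of 13 above 0 and a median r of -0.57, which was -0.35 without tumor 1. Top2a, a topoisomerase of dividing cells, had 8.18, 7.16, 6.09, 8.02 and 6.91, and its second probe had r of only -0.15. The mean deviation of the proliferation list was lowest in tumor 3 (-0.69) and highest in tumor 1 (0.66).

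**Figure D4:**
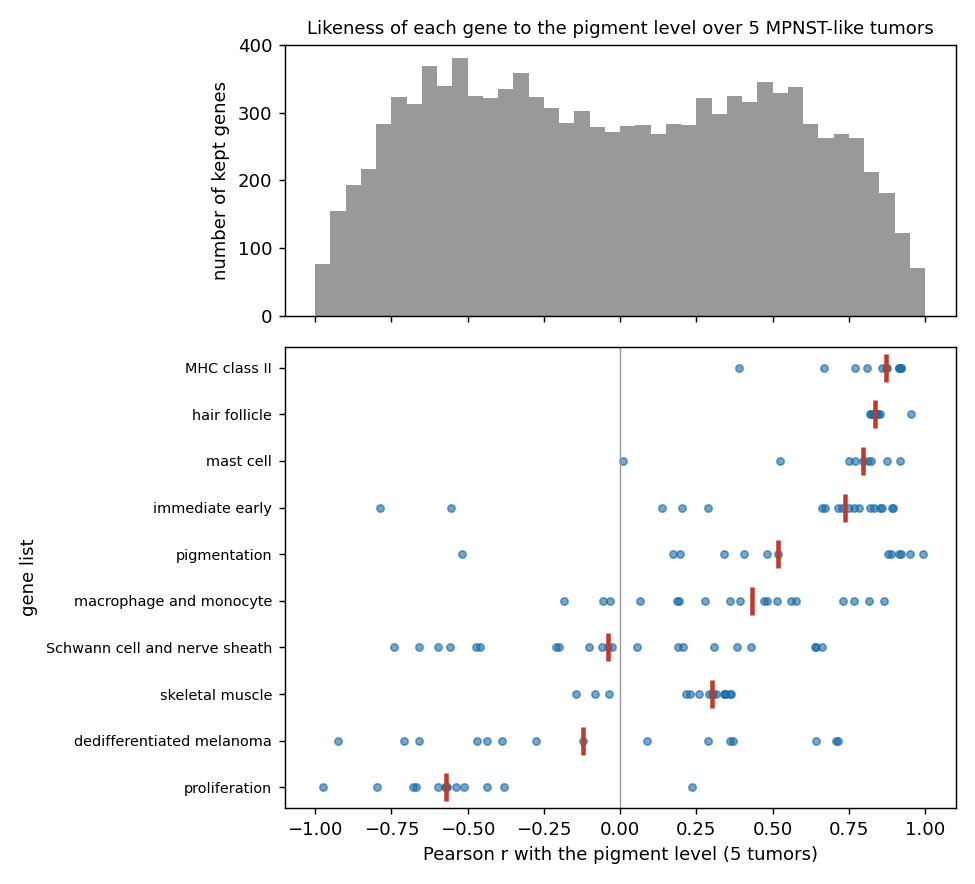
Pearson r of each kept gene with the pigment level over the 5 MPNST-like tumors (horizontal axis), as a histogram of all 11085 genes outside the level (top, number of genes) and by gene list (bottom, 1 point per gene, red mark at the list median). All 11 MHC class II and all 10 hair follicle genes lie above 0, and 12 of 13 proliferation genes lie below it. Of all genes, 48% lie above 0.

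Nerve sheath genes differed among the tumors in no common direction with the pigment level. Of 21 kept Schwann cell and nerve sheath genes 7 had an SD of at least 1, beside 6.24% of all kept genes, and their median SD was 0.73 beside 0.31. Of the 21, 9 had r above 0 (48% of all genes did), with a median r of -0.04. That median was -0.48 without tumor 2 and 0.28 without tumor 1. Ngfr had r = 0.64, Gap43 -0.21 and Tnc -0.66, and Gap43 turned to 0.07 without tumor 1. S100b, a calcium-binding protein of Schwann cells and melanocytes, had 7.72, 4.88, 8.01, 6.69 and 5.25. Mbp, a myelin protein, had 4.80, 6.40, 7.06, 4.84 and 7.01, and Gfra3, a receptor of the GDNF family, had 9.22 in tumor 3 against 4.58 to 6.28 elsewhere. Neurofilament Nefm was lowest in tumor 3, at 5.65 against 8.36 to 10.27, and 5 of 6 kept neuronal genes were lowest there (17.5% of all kept genes were). By mean deviation of the nerve sheath list, tumors 3 and 1 stood highest (0.43 and 0.34). They were the second highest and the lowest in pigment. Of the 21 genes, 10 were highest in tumor 3, which was also the lowest tumor for Gap43 and Tnc.

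Genes of the dedifferentiated, Mitf-low melanoma state varied between the tumors without a shared direction. Of 17 kept genes 2 had an SD of at least 1 (6.24% of all kept genes did), and the median SD was 0.56 beside 0.31 for all kept genes. The mean deviation of the list stayed between -0.14 and 0.14, since members differed both ways. Its median r was -0.12, with 8 of 17 above 0 (48% of all genes were). This median was 0.39 without tumor 1 and -0.31 without tumor 2. Aqp1, a water channel, had 9.95, 11.82, 12.11, 10.15 and 12.70, and Nt5e, the ecto-enzyme CD73, had 10.44 in tumor 1 against 8.39 to 9.13 in the others. Of the engineered alleles' genes, Braf was detected on no array with either probe, and Cdk4 ran from 8.94 in tumor 3 to 9.74 in tumor 1. The tumor suppressor Cdkn2a was highest in tumor 1 at 10.17, against 7.69 in tumor 2 and 8.58 to 8.77 in tumors 3 to 5.

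Hair follicle genes were highest in the 2 tumors that were also highest in pigment, and hair follicles contain pigment cells of their own. The mean deviation of the 10 kept hair genes was -1.69, -0.96, 1.96, -1.35 and 2.03 in tumors 1 to 5. All 10 had r above 0 (48% of all genes did), and the median r was 0.84. Only 1 of the 10 was detected on all 5 arrays, so the others passed the filter through the tumors where they are high, and their r rests in part on values at background. Krt27, a keratin of the inner root sheath, had 4.27, 6.15, 10.12, 4.36 and 10.80, and Krt71 had 4.13, 5.30, 9.31, 4.22 and 9.77. In 9 of 10 hair genes tumors 3 and 5 stood above the other 3, an arrangement found in 1248 of all kept genes (11.3%) and in 21.2% of those with an SD of at least 1. Tumor 4, with Krt27 at 4.36, still held Dct at 9.68 and Mlana at 7.76. Tumors 3 and 5, with nearly equal hair scores, had 7.84 and 11.71 for Pmel and 8.97 and 12.58 for Tyrp1. In the main processing the pigment level ranged over 3.47 log2 units without these 2 tumors, against 7.45 with them. The part that hair follicle RNA has in the pigment level was not tested.

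Sex-linked genes divided the tumors in the same way. Xist, the RNA that coats the inactive X chromosome, had 4.17, 4.16, 10.04, 4.21 and 10.73, and was detected in tumors 3 and 5 only. Eif2s3y, on the Y chromosome, had 8.92, 9.76, 4.19, 7.61 and 4.26, and Kdm5d, also on the Y, had 6.69, 6.26, 4.29, 6.63 and 4.29. The 2 tumors with Xist were those highest in pigment and in hair follicle genes, and with 2 such tumors against 3 these features cannot be told apart.

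The chips lined up with the pigment level as well. All 3 tumors of chip 2 lay above both tumors of chip 1, with a mean level of 9.75 on chip 2 and 5.09 on chip 1. Within chip 2 the level still ranged over 3.98 log2 units, and within chip 1 over 1.23, with most genes of the level undetected in tumor 1. The slope fit on the 3 arrays of chip 2 alone called 0 genes (lowest adjusted p = 0.18 by limma), with 7.19% of genes at an unadjusted p under 0.05 and 1 residual degree of freedom. The 2 arrays of chip 1 are too few for a fit.

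**Figure D5:**
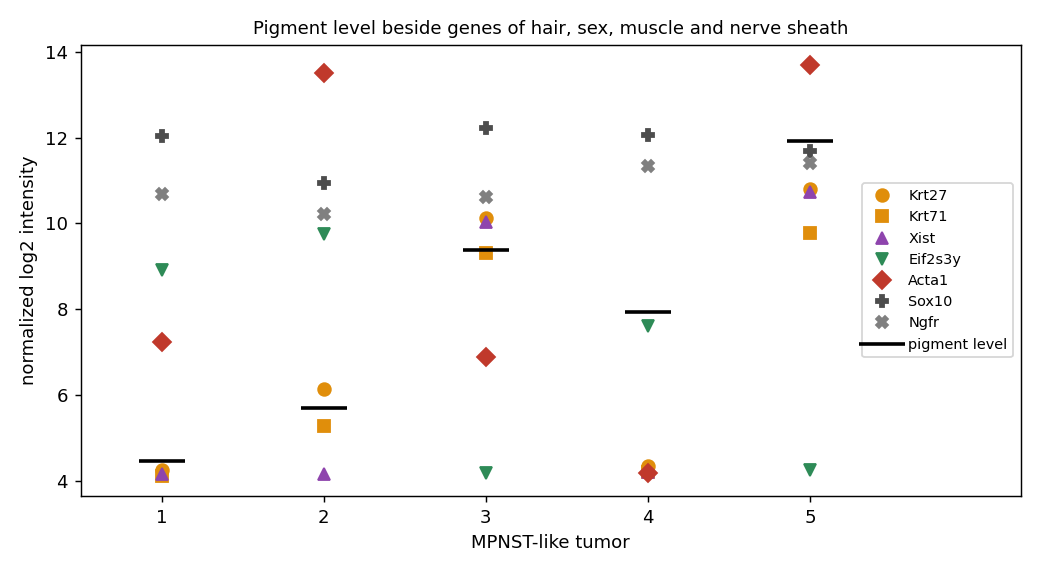
Normalized log2 intensity (vertical axis) of hair keratins Krt27 and Krt71, Xist, the Y-linked Eif2s3y, muscle Acta1, and Sox10 and Ngfr in each MPNST-like tumor (horizontal axis), with the pigment level as a bar. Tumors 3 and 5 share Xist and hair keratins, tumors 2 and 5 share Acta1 at 13.51 and 13.68, and tumor 4 has a pigment level of 7.94 with Krt27 at 4.36.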

How the data were processed

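RNA of 5 MPNST-like tumors was measured on an Illumina MouseWG-6 v2 array with 45281 probes. Per the file headers, the scanner table that the authors deposited holds 2 columns for every array, the intensity averaged over beads and a p-value of detection. The authors also deposited normalized values on a log2 scale, in which 2 to the power of the value was a straight line of the intensity on each array (column medians 4.79 to 4.85). How they were normalized and centred, and the scanner software, is not given in the sources used here, and these values served as an alternative.

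Intensities of the 5 arrays were background-corrected and quantile-normalized with neqc of limma 3.58.1 in R 4.3.3 (offset 16), then taken to log2. Of all probes 34885 had 1 gene symbol, 18 several and 10378 none in the platform annotation. RefSeq (GRCm38.p6) matched 34807 and changed 0 symbols. The brightest kept probe stood for each gene. A score is the mean over a list of each gene's deviation from its own mean. Slopes and chip differences were fitted with lmFit and eBayes over all kept genes with Benjamini-Hochberg adjustment, after a test of the code on simulated data. Figures used matplotlib 3.10.9 in Python 3.11.15. The number of arrays limits the precision, and levels near background understate differences.

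The genes and lists were chosen with earlier results of these data known. Genes were named by rule. It takes the pigment and regulator lists, the label's markers, the driver and sex-linked genes, and the 20 genes of largest SD. It adds the 10 highest and 10 lowest r among genes with a range of at least 1, the 6 smallest SD among bright genes, and up to 4 members of largest SD from each list. Alternatives covered background correction, scaling, filters, probes, chips, the authors' values, the definition of the level and leaving out tumors.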

Additional observations from a re-analysis of the deposited data

Results flagged for a closer look

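Values with 1 tumor far from the other 4 were looked for by Dixon's ratio, the gap of the extreme tumor to its nearest neighbour over the whole range, whose 95% limit is 0.71 for 5 samples. Of 148 values 6 passed, and chance flags about 1 in 20 groups. The keratinocyte score had a ratio of 0.78, with tumor 1 the lowest. Krt17 was lowest in tumor 1 with a ratio of 0.888 and Cxcl2 highest in tumor 2 with 0.835. Actg2, a smooth muscle actin, was lowest in tumor 3 with 0.785 (9.40 against 12.43 to 13.25). Cox5b, a cytochrome oxidase subunit, was highest in tumor 5 with 0.805, and Eef1a1, a translation elongation factor, was lowest in tumor 2 with 0.925, with SDs of only 0.03 and 0.04.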

How the results depend on the processing

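The range of the pigment level was 7.45 log2 units in the main processing. Over 15 alternatives it moved by more than 1 SD in 2, both chosen after seeing the data. It was 3.47 without the 2 tumors high in hair follicle genes and 3.98 on chip 2 alone. Without background correction it was 5.53, and in the authors' values 6.98. Leaving out each tumor gave 4.91 to 7.45. The number of genes with an SD of at least 1 was 692, and was 270 without background correction and 398 with a detection p-value under 0.01 on all 5 arrays. Leaving out each tumor gave 482 to 752. The median SD of 0.31 was 0.19 without background correction and 0.21 without a filter, and 0.28 to 0.31 leaving out each tumor. The slope fit called 0 genes in all 21 alternatives (lowest adjusted p from 0.076 to 1.0) and the chip fit 0 in all 14. Of 1623 values of r for named genes under alternatives, 58 changed sign. Of 1944 values of their SD, 9 more than doubled, 8 of them of Tmsb4x, Eef1a1 and Cox5b. Without tumor 1 the mast cell score ranged over 0.86 log2 units in place of 2.42, and the keratinocyte score over 0.68 in place of 3.08. No paired analysis was possible because the 5 tumors form 1 group and their numbers pair nothing. Signal over background limits genes near 4 to 5 log2 units, where undetected values have no order.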
